A study of Mus musculus with 24 samples.

Results

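Untreated mouse macrophages in which Hdac9 was lost were set against untreated macrophages in which a regulatory element was deleted and Hdac9 was kept. The comparison holds 8 libraries, 4 of the Hdac9 knockout (KO) and 4 of the deletion of a cis regulatory element of Hdac9 (dCIS), of 24 RNA sequencing libraries in all, and every expressed gene, 14757 of 56941 gene IDs. The libraries were assigned to each side by their genotype and treatment labels, not by a measured value. Earlier results of these data were known when members and gene lists were chosen. The labels give neither the exons lost in KO nor the position or size of the element lost in dCIS, and no strain, sex or age. The 4 untreated wild-type (WT) libraries, which enter neither side of the comparison, serve as a point of reference, and 4 KO and 4 dCIS libraries treated for 6 hours with 100 ng/ml LPS (lipopolysaccharide of bacteria, which TLR4 senses) give the same comparison after LPS. All were bone marrow-derived macrophages, grown from flushed marrow in medium conditioned by L929 cells and plated on day 7. The labels do not state that libraries of 1 genotype are from different mice or cultures, so the p-values cover the spread among libraries alone, and it may be technical.

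Hdac9 is a class IIa histone deacetylase. The enzymes of this class have little deacetylase activity of their own; they bind transcription factors of the MEF2 family and bring NCoR corepressor complexes, which hold the active deacetylase HDAC3, to their target genes. In macrophages Hdac9 has been studied for its part in inflammatory gene expression, in the inflammasome and in the handling of cholesterol.

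Total counts ranged from 15716390 to 19181707 in KO libraries, from 15600199 to 16902065 in dCIS libraries and from 15750606 to 16128430 in WT libraries. On the first principal component, which held 36.5% of the variance of the untreated libraries, KO lay between 25.4 and 37.7, dCIS replicate 2 at 10.4, dCIS replicates 4 and 1 at -18.98 and -21.59 and dCIS replicate 3 at -55.1, and WT between -17.4 and 2.43. Of the dCIS libraries, replicate 3 lay farthest from KO on this component and replicate 2 nearest to it. Many results, though not all, are also given without dCIS replicate 3. Defining macrophage genes were abundant on both sides: Adgre1, which encodes F4/80, had 2763 ± 193 CPM (counts scaled to the library size) in KO libraries and 1809 ± 362 CPM in dCIS libraries (SD, n = 4 each). The neutrophil gene Ly6g and the dendritic cell gene Cd209a had no count in the 12 untreated libraries, but other markers of these cells did. Summed neutrophil markers had 20.5 to 42.4 CPM in KO libraries and 16.7 to 22.8 CPM in dCIS libraries. Dendritic cell markers summed to 5.42 to 6.63 CPM in KO libraries and 9.14 to 13.4 CPM in dCIS libraries.

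Hdac9 was close to the detection limit in KO and fully expressed in dCIS. KO libraries 1 to 4 had 1.31, 0.884, 0.841 and 1.13 CPM, from 27, 22, 17 and 24 counts. In dCIS libraries it had 17.9, 17.0, 13.0 and 14.5 CPM, from 380, 363, 263 and 327 counts, and in WT libraries 9.15, 12.4, 11.4 and 12.0 CPM. The KO and dCIS libraries did not overlap, and every dCIS library lay above every WT library. The log2 fold change of dCIS over WT was 0.472 (SE 0.197), and this difference was not called. After LPS dCIS and WT overlapped, with 9.89 to 21.2 CPM in dCIS libraries and 10.4 to 16.5 CPM in WT libraries. The log2 fold change of KO over dCIS was -3.90 (SE 0.246, edgeR adjusted p = 1.40e-10), and an exact permutation test of the mean log2 level over the same 8 libraries gave a difference of -3.79 with p = 0.0286 (2-sided), the smallest p that 4 against 4 libraries can give. The reads left in KO were spread over all 4 libraries, and the table does not say which exons they came from. Of the 17 deacetylases tested Hdac9 fell most; Hdac4, another class IIa enzyme, rose by 0.58 (SE 0.152, adjusted p = 0.0103) and the sirtuin Sirt7 fell by 0.30 (SE 0.0964, adjusted p = 0.0274). Hdac4 lost its call with the length correction, and Sirt7 without KO replicate 1, 3 or 4 or dCIS replicate 3; the class IIa members Hdac5 and Hdac7 had log2 fold changes of 0.35 and 0.09 with adjusted p of 0.0614 and 0.746.

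**Figure D1:**
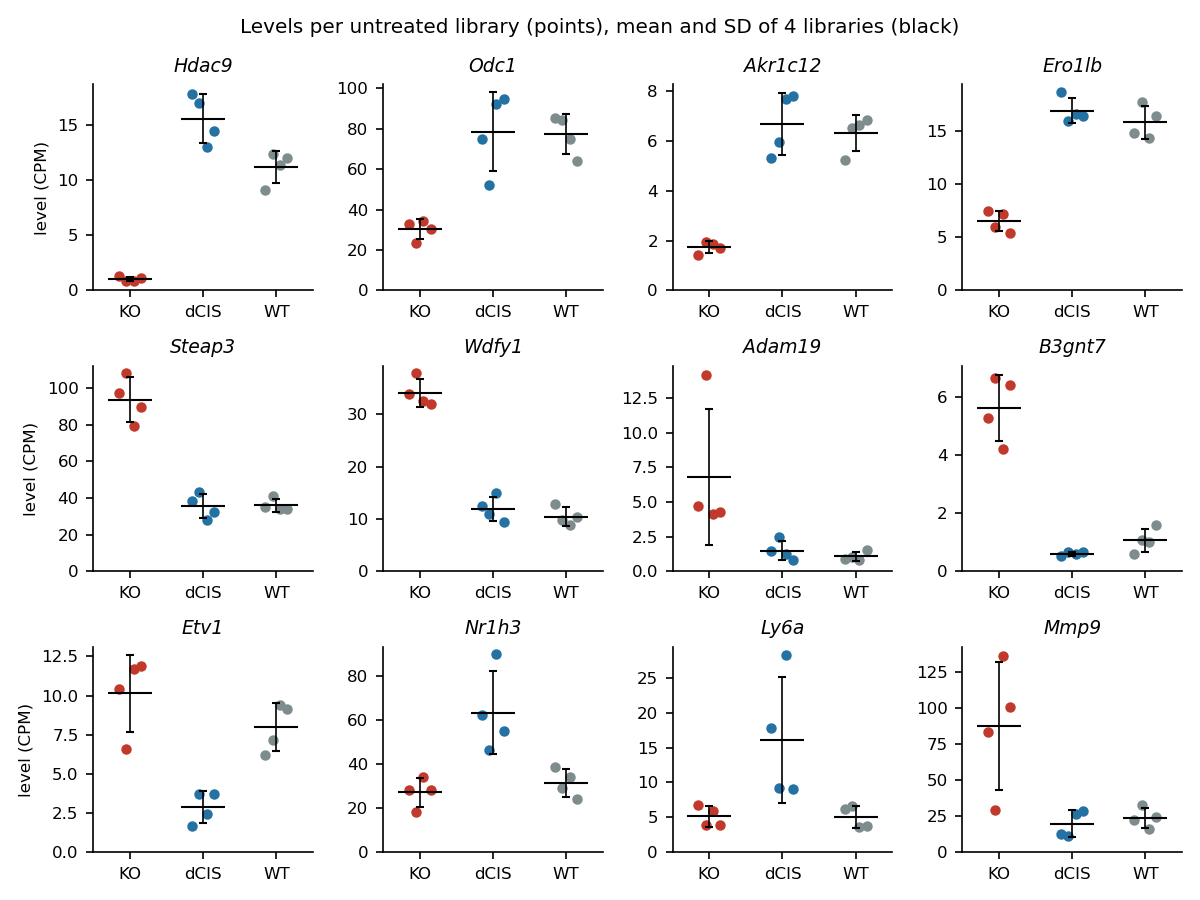
Levels in CPM (vertical axes, linear from 0) of 12 genes in the 4 KO, 4 dCIS and 4 WT untreated libraries; points are libraries, black lines the mean with its SD. Hdac9, Odc1, Akr1c12 and Ero1lb lie lower in KO than in dCIS without overlap, Steap3, Wdfy1, Adam19, B3gnt7, Etv1 and Mmp9 higher, and WT lies beside dCIS for some genes and beside KO for Etv1, Nr1h3 and Ly6a.

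In the untreated cells 3147 of 14757 genes (21.3%) were called at an adjusted p under 0.05. Of these, 1782 (12.1% of genes tested) were higher in KO than in dCIS and 1365 (9.25%) were lower, and 1801 of the called genes (57.2%) differed by less than 1.5-fold. In 296 genes (2.01%) the difference was called, over 2-fold, and free of overlap between the 4 KO and 4 dCIS libraries, 152 higher (1.03%) and 144 lower (0.976%). The 4 KO and 4 dCIS libraries did not overlap in 2761 genes (18.7%). The median log2 fold change of all genes tested was 0.005. Without dCIS replicate 3 the number called was 1198, without dCIS replicate 2 it was 4488, and without any of the other 6 libraries it lay between 2127 and 2735.

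The direction of the calls followed transcript length. With genes divided into 5 classes of equal size by transcript length, 1.1% of the shortest class were called higher in KO and 17.5% lower, and in the longest class 37.6% were called higher and 1.93% lower. Genes called higher had a median transcript length of 5549 nucleotides, genes called lower 1635, and all tested genes 2908. The libraries differed in the same way within a genotype: relative to the mean of the 12 untreated libraries, the median log2 deviation of the longest class was 0.174 to 0.246 in KO libraries, and in dCIS libraries -0.123, 0.0935, -0.344 and -0.142, so that dCIS replicate 2 lay nearest to KO and dCIS replicate 3 farthest. With the length trend of each library removed, a correction chosen after the data were seen, 1580 genes (10.7%) were called, 710 higher (4.81% of genes tested) and 870 lower (5.9%), of which 1234 were also among the 3147. What part of the length trend goes with genotype and what part with the libraries was not tested. Many gene groups are therefore given with and without this correction. Groups given without a corrected count rest on the counts as deposited alone.

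**Figure D2:**
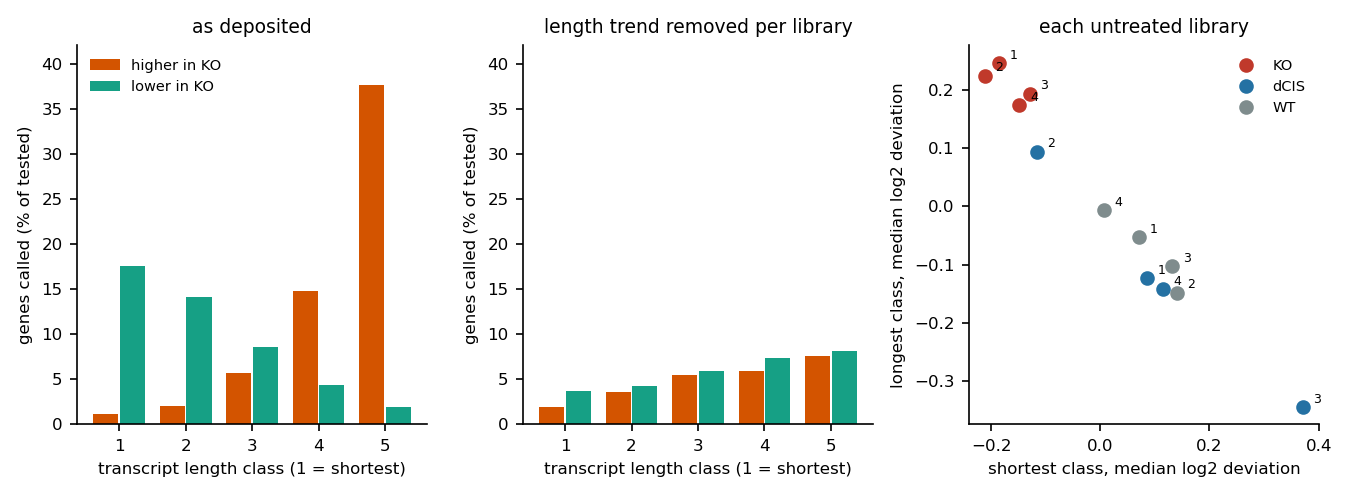
Left and middle, the share of tested genes called higher or lower in KO than in dCIS (vertical axis, % of tested) in 5 classes of transcript length, from the counts as deposited and after removal of each library's length trend. Right, the median log2 deviation of the shortest and longest classes in each of the 12 untreated libraries (numbers are replicates): the 4 KO libraries lie together at the upper left and dCIS replicate 3 lies at the lower right.

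Many cell cycle genes were lower in KO than in dCIS. Before cells copy DNA, the MCM helicase is loaded by Cdc6 and Cdt1 and activated with Cdc45, under transcription factors of the E2F family; later genes of mitosis, among them the kinase Cdk1, its cyclins and the chromosomal passenger protein Birc5, are switched on through promoter elements bound by the DREAM complex and by B-Myb with FoxM1. Of 24 tested genes of DNA replication and S phase 0 rose and 19 fell, with a median log2 fold change of -0.76 against 0.005 over all genes; the share that fell was 79.2%, beside 9.25% of all genes tested. Of 22 mitosis and kinetochore genes 0 rose and 14 fell, with a median of -0.88 (63.6% lower). In bulk RNA, fewer cells in cycle and less RNA per cell cannot be told apart.

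Promoter sequences of 3 called genes are shown as examples of the motifs by which cell cycle genes are usually grouped. Only the first start listed for each gene was searched, so 0 matches in a window says nothing of a gene's other starts. The windows of the called genes Birc5, E2f1 and Tyms held 0 matches to any of the 3 motifs. The sequences shown were picked because they hold matches. They run 5′ to 3′ on the gene's strand, from 250 bases before to 50 bases after the start, in RefSeq's GRCm38.p6 (Mcm6 at chr1:128359656-128359955, minus strand; Mcm7 at chr5:138171834-138172133, minus strand; Ube2c at chr2:164769679-164769978, plus strand). Capitals mark matches, on either strand, to the E2F motif (TTTCCCGC or TTTGGCGC), the cell cycle homology region CHR (TTTGAA or TTCGAA) and the CCAAT box.

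Mcm6: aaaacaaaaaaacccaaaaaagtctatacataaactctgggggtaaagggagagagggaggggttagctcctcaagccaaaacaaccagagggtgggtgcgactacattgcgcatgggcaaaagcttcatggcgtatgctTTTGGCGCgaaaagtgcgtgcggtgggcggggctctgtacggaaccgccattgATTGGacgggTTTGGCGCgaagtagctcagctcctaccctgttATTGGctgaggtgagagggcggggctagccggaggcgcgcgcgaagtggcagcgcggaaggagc

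Mcm7: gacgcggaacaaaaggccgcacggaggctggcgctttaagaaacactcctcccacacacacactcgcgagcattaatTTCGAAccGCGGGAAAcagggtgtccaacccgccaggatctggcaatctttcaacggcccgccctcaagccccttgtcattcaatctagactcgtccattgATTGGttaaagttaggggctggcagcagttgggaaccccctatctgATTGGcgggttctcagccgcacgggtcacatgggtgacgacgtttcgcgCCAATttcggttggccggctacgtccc

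Ube2c: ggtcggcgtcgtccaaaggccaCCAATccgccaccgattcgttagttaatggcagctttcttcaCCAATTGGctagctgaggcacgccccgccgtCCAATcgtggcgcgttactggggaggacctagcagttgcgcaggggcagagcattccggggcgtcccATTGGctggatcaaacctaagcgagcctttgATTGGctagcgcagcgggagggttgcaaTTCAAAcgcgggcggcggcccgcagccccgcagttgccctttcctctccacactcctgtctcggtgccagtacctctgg

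Mcm6 held 2 E2F matches and no CHR, Mcm7 held 1 of each, and Ube2c held a CHR and no E2F match. Among called genes of the mitosis list that had a promoter in the table, a CHR match was present in 8 of 10 (80%), and among those of the replication list in 2 of 16 (12.5%), beside 14.1% of the 9535 tested genes with a promoter. An E2F match was present in 7 of 16 replication promoters (43.8%) and 0 of 10 mitosis promoters, beside 3.21% of all. CCAAT matches, which can overlap each other, were present in 11 of 16 (68.8%) and 8 of 10 (80%), beside 39.1% of all. The lists were composed by function, so the shares describe the groups and show nothing of what acts on them in these cells. For the MEF2 motif (CTA and TAG with any 4 bases between them; the factor family that class IIa deacetylases bind) the share was 2.28% in genes called higher, 2.64% in genes called lower and 2.78% in all tested genes.

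Among the replication genes, Mcm6, a subunit of the replicative helicase, had 114, 75.8, 77.0 and 71.2 CPM in KO libraries, against 157, 126, 130 and 120 CPM in dCIS libraries. Its partner Mcm7 had 32.3, 22.3, 21.1 and 21.5 CPM in KO libraries, against 56.5, 40.6, 44.8 and 39.1 CPM in dCIS libraries. Every KO library lay below every dCIS library for both, and KO replicate 1 was the highest KO library in each. The log2 fold changes were -0.66 for Mcm6 (SE 0.1615, adjusted p = 0.0072) and -0.90 for Mcm7 (SE 0.193, adjusted p = 0.00358). Tyms, which makes thymidylate for DNA synthesis, averaged 6.02 ± 1.43 CPM in KO libraries and 13.4 ± 2.17 CPM in dCIS libraries (SD, n = 4 each), a fall of 1.151 on the log2 scale (adjusted p = 0.00112). E2f1, a transcription factor of the G1 to S transition, averaged 35.1 ± 1.22 CPM in KO libraries and 51.4 ± 8.24 CPM in dCIS libraries (log2 fold change -0.55, adjusted p = 0.00301). Mcm2, Mcm4, Gins2, Pola1 and Uhrf1 had negative log2 fold changes and did not pass the test.

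Among the mitosis genes Birc5, which encodes survivin, changed most. It had 12.3, 10.1, 7.92 and 7.42 CPM in KO libraries, 39.2, 25.4, 34.8 and 21.2 CPM in dCIS libraries, and 18.5, 24.4, 11.1 and 9.55 CPM in WT libraries, and its log2 fold change was -1.67 (SE 0.310, adjusted p = 0.00162). Ube2c, the ubiquitin-conjugating enzyme of the anaphase-promoting complex, had 10.6, 8.04, 6.24 and 5.45 CPM in KO libraries, against 23.5, 14.7, 18.6 and 13.0 CPM in dCIS libraries (log2 fold change -1.20, SE 0.322, adjusted p = 0.011). KO and dCIS libraries did not overlap for either gene. Ccna2, which encodes cyclin A2, had 24.5, 15.8, 11.4 and 11.0 CPM in KO libraries, against 45.8, 39.0, 30.7 and 25.9 CPM in dCIS libraries (log2 fold change -1.17, adjusted p = 0.00911). Outside these lists the largest falls of the whole comparison held more genes of the same kind: Spc25, Spc24 and Nuf2, 3 of the 4 subunits of the NDC80 complex that ties kinetochores to microtubules, had log2 fold changes of -1.52, -1.49 and -1.29. Stmn1, which destabilises microtubules, had 23.9, 23.4, 15.2 and 17.3 CPM in KO libraries, against 76.7, 56.0, 70.1 and 37.6 CPM in dCIS libraries (log2 fold change -1.59). The proliferation marker Mki67 had a log2 fold change of -0.52 and an adjusted p of 0.233, and Ccnb1, Bub1, Cdc20, Cenpe, Cenpf, Kif11 and Ttk did not pass either.

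**Figure D3:**
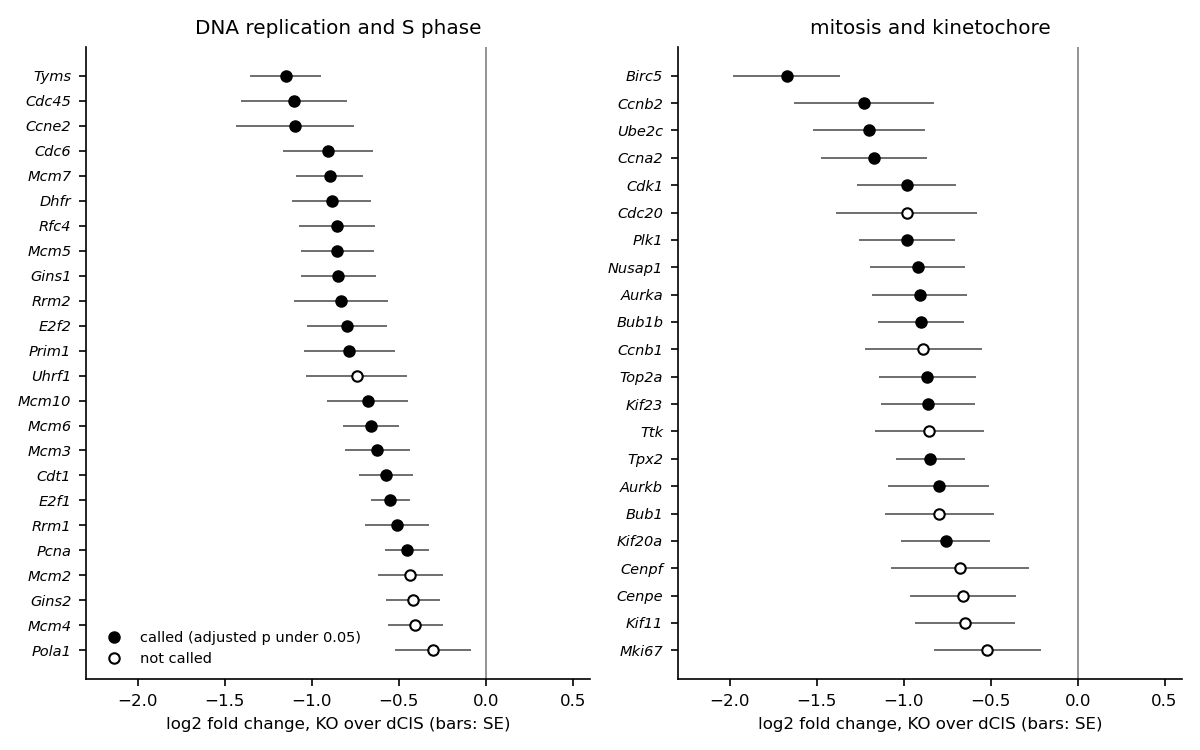
Log2 fold change of KO over dCIS (horizontal axis, bars are SE) for each tested gene of the replication list (left) and the mitosis list (right); filled points are called at an adjusted p under 0.05. All 46 points lie below 0, and 19 of 24 and 14 of 22 are filled.

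Summed over a list, the level showed how libraries were spread. The replication list summed to 952, 646, 667 and 650 CPM in KO libraries, 1288, 1059, 1020 and 1056 CPM in dCIS libraries, and 916, 1220, 820 and 705 CPM in WT libraries. The mitosis list summed to 426, 291, 241 and 213 CPM in KO libraries, 692, 613, 434.6 and 391.9 CPM in dCIS libraries, and 379, 454, 252 and 216 CPM in WT libraries. For the replication list KO and dCIS did not overlap; for the mitosis list KO replicate 1 lay above dCIS replicate 4, and KO was the lower one in each of the 4 pairs of equal number. WT libraries spanned much of the range of both. With the length correction 17 replication and 15 mitosis genes fell, without dCIS replicate 3 17 and 11, and with both changes 11 and 11; without dCIS replicate 1 the counts were 10 and 5, and under none of these settings did a gene of these lists rise. The replication count was 13 without KO replicate 2 or KO replicate 3 and 12 without KO replicate 4, and the mitosis count was 6 without KO replicate 3 or KO replicate 4. After LPS, in other libraries, 2 replication genes and 5 mitosis genes fell and the medians were -0.35 and -1.11.

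**Figure D4:**
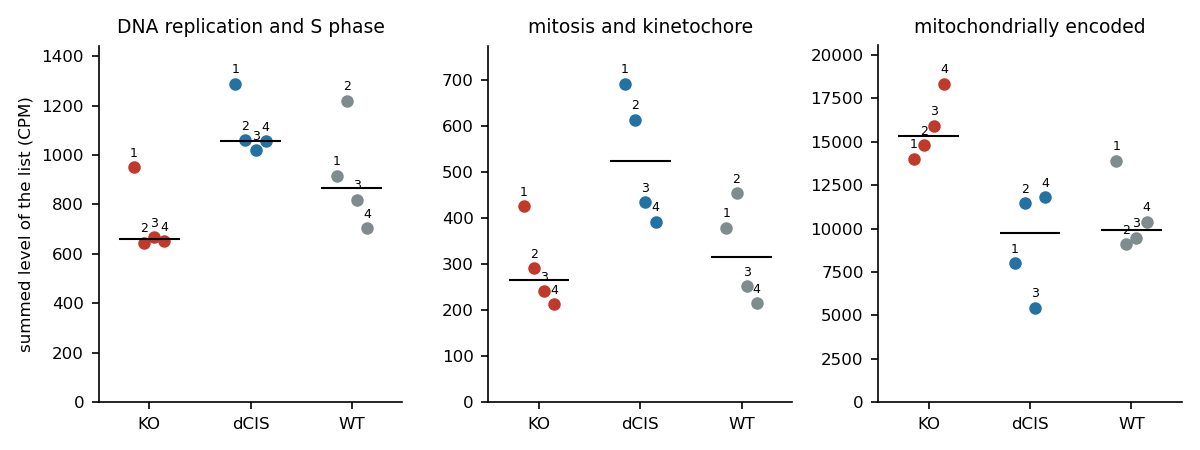
Summed level (vertical axes, CPM from 0) of the replication, mitosis and mitochondrially encoded lists in each untreated library; numbers are replicates and black lines medians. KO lies below dCIS for the replication list and above it for the mitochondrially encoded list, and WT overlaps both genotypes for the mitosis list.

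B3gnt7, Adam19, Pcdhac2 and Mmp9 were among the largest rises in KO over dCIS of genes with a mean of at least 5 CPM in the higher genotype and no overlap. B3gnt7, a glycosyltransferase that extends keratan sulfate, had 5.28, 6.67, 4.21 and 6.43 CPM in KO libraries, 0.517, 0.656, 0.595 and 0.665 CPM in dCIS libraries, and 0.604, 1.07, 1.00 and 1.60 CPM in WT libraries. Its log2 fold change was 3.199 (SE 0.398, adjusted p = 1.54e-05), and WT lay close to dCIS. Adam19, a membrane metalloprotease, had 4.70, 14.2, 4.11 and 4.27 CPM in KO libraries, against 1.46, 2.48, 1.24 and 0.843 CPM in dCIS libraries. KO replicate 2 was far above the other KO libraries, and the log2 fold change of 2.18 (adjusted p = 0.000447) became 1.53 without it, still called. Mmp9, the secreted gelatinase B, had 83.0, 29.5, 136 and 100 CPM in KO libraries, against 12.5, 11.3, 26.7 and 28.8 CPM in dCIS libraries (log2 fold change 2.14, SE 0.381, adjusted p = 0.00127). Its highest dCIS library lay just under its lowest KO library, replicate 2. Pcdhac2, a protocadherin of the alpha cluster, had a log2 fold change of 2.17 (adjusted p = 0.000921).

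Steap3 and Wdfy1 were also among these rises and lay far from dCIS in every KO library. Steap3, a ferrireductase of endosomal iron uptake, had 97.2, 108, 79.2 and 89.7 CPM in KO libraries, 38.3, 43.1, 28.3 and 32.5 CPM in dCIS libraries, and 35.4, 41.4, 33.8 and 34.3 CPM in WT libraries (log2 fold change 1.40, SE 0.144, adjusted p = 8.22e-07). Wdfy1, a protein of early endosomes that takes part in TLR3 and TLR4 signalling, had 33.9, 37.9, 32.5 and 32.0 CPM in KO libraries, 12.5, 11.1, 14.9 and 9.45 CPM in dCIS libraries, and 12.9, 9.83, 8.81 and 10.4 CPM in WT libraries (log2 fold change 1.51, SE 0.133, adjusted p = 5.035e-08). The WT libraries of both lay beside dCIS. Further leading rises were Sntb1 (1.72), Morn4 (1.56), Cacna1a (1.56), Map1a (1.49), Cd4 (1.38) and Edil3 (1.34), where Sntb1 encodes a syntrophin, Cacna1a a subunit of a calcium channel, and Map1a a microtubule-associated protein.

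By the same limits of level and overlap, and leaving out gene models named only by a number or a clone, Akr1c12, Ly6a, Odc1 and Ero1lb were among the largest falls besides Hdac9 and the cell cycle genes. A gene model without a symbol fell by 2.01 on the log2 scale, more than any of these 4. Akr1c12, an aldo-keto reductase, had 1.40, 1.93, 1.88 and 1.69 CPM in KO libraries, 5.31, 5.95, 7.68 and 7.81 CPM in dCIS libraries, and 5.25, 6.52, 6.62 and 6.83 CPM in WT libraries (log2 fold change -1.95, SE 0.198, adjusted p = 6.43e-07). Odc1, ornithine decarboxylase, the first enzyme of polyamine synthesis, had 33.1, 23.6, 34.3 and 30.2 CPM in KO libraries, 74.8, 52.3, 92.4 and 94.6 CPM in dCIS libraries, and 85.5, 84.3, 74.8 and 64.2 CPM in WT libraries (log2 fold change -1.38, SE 0.156, adjusted p = 3.98e-06). Ero1lb, an oxidase of disulfide bond formation in the endoplasmic reticulum, had 7.46, 5.99, 7.18 and 5.45 CPM in KO libraries, against 18.7, 16.0, 16.6 and 16.4 CPM in dCIS libraries (log2 fold change -1.38, adjusted p = 3.32e-06). WT lay with dCIS for all 3 genes. Ly6a, which encodes the surface protein Sca-1, differed in that WT lay with KO: it had 6.83, 3.94, 5.94 and 3.85 CPM in KO libraries, 17.8, 9.23, 28.2 and 9.05 CPM in dCIS libraries, and 6.18, 6.61, 3.57 and 3.83 CPM in WT libraries (log2 fold change -1.65, SE 0.325, adjusted p = 0.00227). Of the 30 leading rises and falls, 28 were called under each of 21 other settings of the analysis; Map1a and Ly6a missed the threshold when the length correction was made without dCIS replicate 3 (adjusted p = 0.0964 and 0.0512).

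After LPS, in 8 other libraries, 322 genes (2.18%) were called, 199 higher (1.35%) and 123 lower (0.834%). The dCIS libraries of replicates 3 and 4 after LPS had 17628 and 15997 genes with a count, against 20537 to 20874 in the KO libraries after LPS, and 62 genes were called without them, 122 without replicate 3 alone and 1446 without replicate 2 alone. Of the 322, 191 were also called in the same direction untreated, which is 59.3% of the calls after LPS and 6.07% of the calls untreated. The LPS libraries are not a fully separate repeat: among the LPS libraries of its genotype, the one with the same number correlated best with each untreated KO and dCIS library in deviations from the group mean (r of 0.155 to 0.296 in KO and 0.0396 to 0.339 in dCIS), and whether equal numbers share a culture or an animal is not in the labels. Steap3 (2.14), B3gnt7 (2.42), Adam19 (2.66), Mmp9 (1.503), Wdfy1 (1.39), Akr1c12 (-2.34), Odc1 (-1.64), Ero1lb (-1.73) and Ly6a (-1.32) had log2 fold changes after LPS of the same sign as untreated. Hdac9 averaged 0.302 ± 0.155 CPM in KO and 14.6 ± 5.26 CPM in dCIS after LPS, a log2 fold change of -5.57. Only 2 genes were called in opposite directions, Lsm11 (-0.39 untreated and 0.61 after LPS) and the mitochondrial transfer RNA mt-Tm (-0.86 and 1.05).

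**Figure D5:**
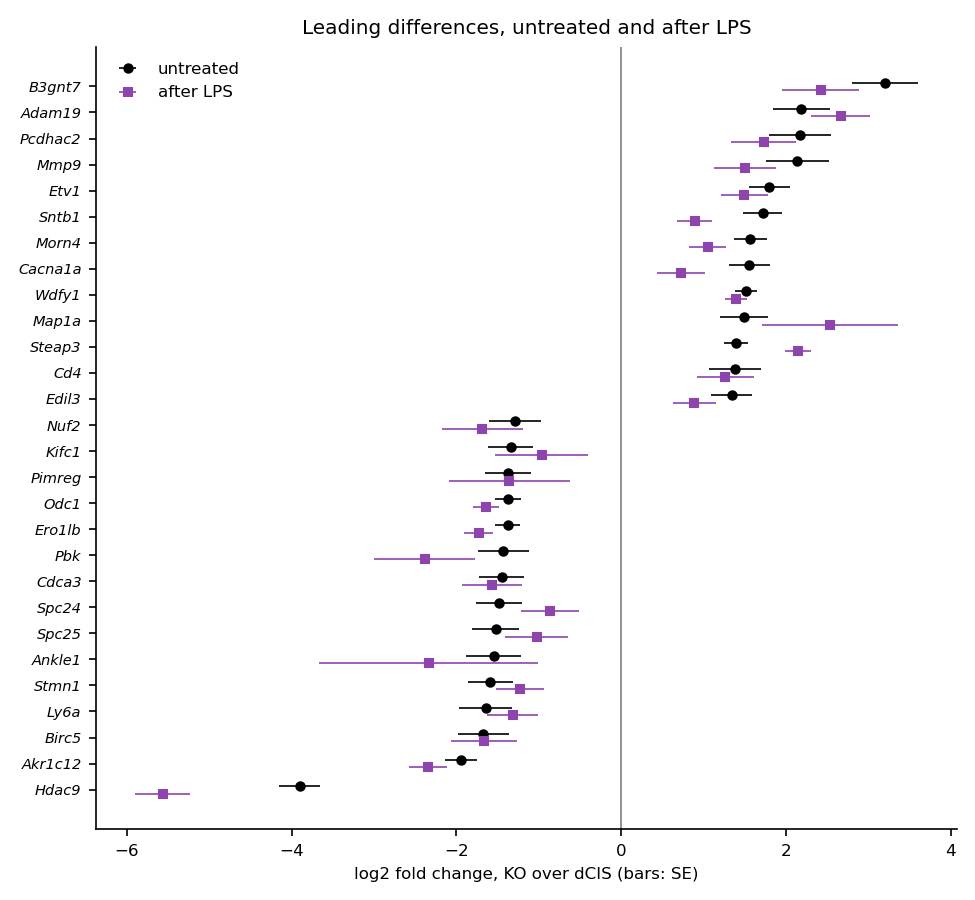
Log2 fold change of KO over dCIS (horizontal axis, bars are SE) for 13 of the 15 largest rises and the 15 largest falls chosen in untreated libraries, untreated (circles) and after LPS (squares). The points of each gene lie on the same side of 0; the untreated values chose the genes.

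In 64 genes (0.434% of genes tested) the difference was called, over 2-fold and of 1 direction in both treatments, 40 higher and 24 lower; this set was chosen after the values were seen, and 17 of its genes are known only by a number or a clone name. WT lay near KO for 11 of them, near dCIS for 37 and between for 16. Of the 64, 60 were called without dCIS replicate 3, 60 with the length correction and 49 with both. By chromosome, among those that held any of the 64, the share of tested genes lay between 0.105% on chromosome 5 and 1.56% on chromosome 12. Chromosomes 1, 12 and 13, which had the highest shares (1.18%, 1.56% and 0.885%), are described for that reason, without a test.

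On chromosome 1, 11 of the 64 lay within 208 consecutive tested genes. From the one end to the other these were Fn1, Wdfy1, C130026I21Rik, B3gnt7, Ugt1a9, Ugt1a8, Ugt1a6b, Gm15372, Glrp1, Arl4c and Steap3. Ugt1a8, a liver-type UDP-glucuronosyltransferase, had 1.26, 2.13, 1.78 and 1.69 CPM in KO libraries and no count in the 4 dCIS libraries, at least 49.4-fold higher in KO if dCIS is set to a floor of 3 counts in its 4 libraries together; Ugt1a9 was at least 25.2-fold higher by the same floor. The Ugt1a transcripts share their last exons, so counts may be split between them and single members are uncertain. Glrp1 went the other way, with 0, 0.0804, 0.0990 and 0 CPM in KO libraries, against 1.55, 1.4995, 2.58 and 2.75 CPM in dCIS libraries. Arl4c, a small GTPase and a target of the sterol receptor LXR, had 35.7, 65.8, 31.4 and 36.6 CPM in KO libraries, against 18.0, 26.8, 13.8 and 15.7 CPM in dCIS libraries (log2 fold change 1.19, adjusted p = 0.00245).

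On chromosome 12, which carries Hdac9, 8 of the 64 were found, Efr3b, Odc1, Zfp125, Hdac9, Etv1, Dtd2, Gm4864 and Tedc1. In the order of tested genes, Odc1 lay 50 places before Hdac9 and Zfp125 45 places before it, Etv1 11 places after it and Dtd2 36 places after it. Zfp125, a zinc finger gene, had no count in the 4 KO libraries and 1.79, 1.69, 1.19 and 1.55 CPM in dCIS libraries, at least 45.2-fold lower in KO. Etv1, an ETS transcription factor, had 10.4, 6.59, 11.7 and 11.9 CPM in KO libraries, 1.69, 3.70, 2.48 and 3.73 CPM in dCIS libraries, and 6.22, 7.17, 9.39 and 9.16 CPM in WT libraries (log2 fold change 1.80, SE 0.251, adjusted p = 7.45e-05). Here WT lay with KO, whereas for Odc1 and Zfp125 it lay with dCIS. Over the whole of chromosome 12, 126 of 514 tested genes (24.5%) were called, against 2997 of 14018 (21.4%) on all other chromosomes, and 17 (3.31%) against 267 (1.9%) were over 2-fold without overlap. Among the 10 nearest tested genes on each side of Hdac9, 3 of 20 (15%) were called, the Golgi subunit Cog5 (log2 fold change 0.46), the kinase subunit Pik3cg (0.57) and Atxn7l1 (0.46), and the first 2 of these lost the call without dCIS replicate 3. On chromosome 13, 5 of the 64, Akr1c12, Ero1lb, Gm18562, Gpr141b and Zkscan8, lay within 68 consecutive tested genes. The strain background of the alleles is not in the labels.

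WT showed on which side of the comparison a difference lay. WT was placed on the log2 scale along the way from the mean of dCIS to the mean of KO. Up to 0.25 of the way counted as near dCIS and over 0.75 as near KO, positions beyond either mean included. By this rule WT lay near KO for 93 of the 3147 called genes (2.96%), near dCIS for 1644 (52.2%) and between for 1410 (44.8%). With the length correction the share near dCIS was 37.3%. Among the 296 genes over 2-fold without overlap WT was near KO for 10.1%, near dCIS for 36.8% and between for 53%. Against WT, in fits that share these libraries, 1079 genes (7.31%) were called in KO and 8 (0.0542%) in dCIS. They included Gm15446, Spred3, Hpn, Sbno1, Etv1 and Alkbh6, lower in dCIS than in WT, and Ly6a, higher in dCIS than in WT.

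Several of those genes were large differences between KO and dCIS. Hpn, the serine protease hepsin, had 2.28, 5.87, 2.57 and 5.68 CPM in KO libraries, 0.799, 0.937, 0.992 and 1.15 CPM in dCIS libraries, and 6.04, 5.87, 6.19 and 7.22 CPM in WT libraries. Spred3, an inhibitor of the Ras to MAP kinase pathway, averaged 4.62 ± 1.06 CPM in KO libraries, 0.784 ± 0.132 CPM in dCIS libraries and 4.14 CPM in WT libraries (SD, n = 4 each). Every dCIS library lay below every KO and WT library for both genes, and in KO replicates 2 and 4 were above replicates 1 and 3. Sbno1, a helicase-like transcriptional regulator on another chromosome, averaged 98.5 ± 7.46 CPM in KO libraries and 49.5 ± 7.01 CPM in dCIS libraries, with 82.2 CPM in WT.

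Cholesterol genes did not move as a block. LXR receptors sense oxysterols and raise the efflux pumps Abca1 and Abcg1. Nr1h3, which encodes LXR alpha, had 28.3, 18.4, 34.2 and 28.2 CPM in KO libraries, 62.4, 46.5, 89.9 and 55.2 CPM in dCIS libraries, and 38.9, 29.2, 34.4 and 24.2 CPM in WT libraries. Every KO library lay below every dCIS library, WT lay with KO, and the log2 fold change was -1.22 (SE 0.20, adjusted p = 0.000597), and -1.43 after LPS (adjusted p = 9.42e-05). Abca1 had 254, 475, 222 and 219 CPM in KO libraries, against 135, 280, 85.03 and 140 CPM in dCIS libraries (log2 fold change 0.87, adjusted p = 0.0263), and replicate 2 was the highest library of both genotypes; the call was lost without KO replicate 2 (adjusted p = 0.15), without dCIS replicates 1, 3 or 4, and with the length correction. Abcg1 had a log2 fold change of 0.22 (adjusted p = 0.528). Among all genes tested 12.1% rose and 9.25% fell. Of 17 LXR and efflux genes 5 rose (29.4%) and 2 fell (11.8%; median 0.28), with the length correction 4 and 2. Of 15 genes of fatty acid synthesis 6 rose (40%) and 0 fell (median 0.39), and 2 rose with the length correction. Of 22 sterol synthesis genes 2 rose (9.09%) and 1 fell (4.55%), and of 16 scavenger receptor genes 1 rose, the large receptor Lrp1, and 1 fell, the lipid carrier Fabp4 (6.25% each); both lists lay below the shares of all genes.

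Cytokine and chemokine genes were called higher at about the rate of all genes. Of 24 tested 3 rose (12.5%, beside 12.1% of all genes) and 1 fell (4.17%, beside 9.25%), with a median log2 fold change of -0.09. Tnf had a log2 fold change of 0.03 (adjusted p = 0.938), Il1b 0.29 (adjusted p = 0.681) and Il6 0.77 (adjusted p = 0.563). The 3 called rises were Csf1, Ptgs2 and Nos2, the inducible nitric oxide synthase, which had 0.194, 3.09, 0.198 and 0.235 CPM in KO libraries, against 0.0940, 0.0937, 0.149 and 0 CPM in dCIS libraries, so its call rested on KO replicate 2 and was lost without it. Csf1 lost its call without KO replicate 2, dCIS replicate 3 or dCIS replicate 4, and Ptgs2 without 6 of the 8 libraries in turn. Of 24 inflammasome and IL-1 genes 4 rose (16.7%) and 0 fell (median 0.26): the ATP receptor P2rx7 and the receptors of bacterial proteins Nlrc4, Naip6 and Naip2, while Nlrp3 had 0.20 with an adjusted p of 0.397. With the length correction or without dCIS replicate 3, 1 of the 4 was called. Of 20 NF-kB genes 5 rose (25%) and 1 fell (median 0.19), and of 20 TLR4 signalling genes 4 rose (20%) and 1 fell (median 0.15); 3 and 0, and 1 and 0, with the length correction, where 4.81% of all genes rose.

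Genes of the type I interferon response were in part higher in KO. Interferon signals through Stat2 and Irf9 to raise antiviral effectors. Of 37 tested 14 rose (37.8%, beside 12.1% of all genes) and 1 fell (2.7%, beside 9.25%; median 0.26). The counts were 9 and 0 with the length correction, 14 and 0 without dCIS replicate 3 and 7 and 0 with both; without KO replicate 3 the rises were 7, without dCIS replicate 1 they were 9, and in a fit of the 8 libraries alone they were 3. Parp14, an ADP-ribosyltransferase, had 249, 205, 287 and 209 CPM in KO libraries, against 121, 149, 148 and 150 CPM in dCIS libraries (log2 fold change 0.74, SE 0.133, adjusted p = 0.00131), without overlap. Cmpk2, a mitochondrial nucleotide kinase, had 49.5, 38.1, 65.3 and 30.0 CPM in KO libraries, against 17.1, 23.4, 31.4 and 29.8 CPM in dCIS libraries (log2 fold change 0.84, adjusted p = 0.00311). Mx1 averaged 47.9 ± 15.2 CPM in KO libraries and 29.2 ± 8.35 CPM in dCIS libraries (log2 fold change 0.71, adjusted p = 0.0112), and its libraries overlapped. Ifit1, Ifit3 and Isg15 were not called. Of 14 genes of MHC class I presentation 2 rose (14.3%), Erap1 and Nlrc5, and 5 fell (35.7%), Psmb8, Psmb10, Tap2, H2-K1 and H2-Q4 (median -0.27); 0 and 2 with the length correction, and 1 and 1 without dCIS replicate 3.

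Of 20 genes of matrix proteases and their inhibitors 6 rose (30%, beside 12.1% of all genes) and 0 fell (beside 9.25%; median 0.18), with the length correction 6 and 0, without dCIS replicate 3 5 and 0, and with both changes 4 and 0. They were Adam19, Mmp9, Mmp8, Adamts1, Adam9 and Adam17, the protease that sheds TNF and its receptors from the cell surface; Mmp8 (adjusted p = 0.0494) lost its call when any 1 of 6 libraries was left out. Adam17 had 427, 349, 440 and 388 CPM in KO libraries, against 255, 279, 224 and 221 CPM in dCIS libraries (log2 fold change 0.71, SE 0.115, adjusted p = 0.000501). Adam9 had 230, 212, 227 and 229 CPM in KO libraries, against 141, 191, 94.7 and 151 CPM in dCIS libraries (log2 fold change 0.63, adjusted p = 0.00366). KO and dCIS libraries did not overlap for either. Of 15 complement genes 3 rose (20%), among them C3 and Cd55, and 1 fell (6.67%), Cfp (median 0.19), and the calls of Cd55 and Cfp were lost with the length correction and without several single libraries. C3, the central component, had 140, 116, 190 and 210 CPM in KO libraries, against 75.6, 82.7, 90.3 and 81.2 CPM in dCIS libraries (log2 fold change 0.99, SE 0.207, adjusted p = 0.00309).

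The MEF2 group, the factors and corepressors with which class IIa deacetylases work, showed 6 rises (35.3%, beside 12.1% of all genes) and 0 falls among 17 genes (median 0.31), and Mef2a, Mef2d, Ncor1, Bcl6 and Sik3 were among the rises. Ncor1, the corepressor NCoR, had 175, 154, 166 and 169 CPM in KO libraries, against 97.5, 128, 80.2 and 99.7 CPM in dCIS libraries (log2 fold change 0.71, SE 0.131, adjusted p = 0.0016). With the length correction 1 gene of the group was called, without dCIS replicate 3 it was 2, without KO replicate 1 it was 3, and with the correction and without dCIS replicate 3 it was 0.

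Of 11 tested messenger RNAs encoded by mitochondrial DNA 6 rose in KO (54.5%, beside 12.1% of all genes) and 0 fell (beside 9.25%), with a median log2 fold change of 0.64. The list summed to 14020, 14780, 15920 and 18330 CPM in KO libraries, 8017, 11450, 5450 and 11820 CPM in dCIS libraries, and 13910, 9102, 9465 and 10390 CPM in WT libraries. Every KO library lay above every dCIS library, and dCIS replicate 3 was the lowest of all. Without dCIS replicate 3, 2 genes were called, with the length correction 6, and with both 3. Mt-Nd5, a subunit of complex I, had 1808, 1602, 2139 and 2288 CPM in KO libraries, against 797, 1167, 373 and 1101 CPM in dCIS libraries (mt-Nd5 log2 fold change 1.19, SE 0.263, adjusted p = 0.00409).

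The share called in either direction was 33.3% of the iron list, 26.3% of the arginine and polyamine list and 20% of the NRF2 list, beside 21.3% of all genes, and 18.2% or less of each other list here. Among 21 genes of macrophage identity Adgre1 rose by 0.61 and the transcription factor Cebpb fell by 0.61 (adjusted p = 0.00666 and 0.00519), and the lipid receptor Trem2 fell by 0.36 (adjusted p = 0.0453; lost when any 1 of 6 libraries was left out), while Csf1r, Lyz2 and Cd68 were not called. Of 19 genes of arginine and polyamine metabolism Adi1, Nos2 and Slc7a2 rose and Odc1 and its inhibitor Oaz1 fell. Of 15 iron genes Steap3, the iron exporter Slc40a1, Aco1 and Ireb2 rose and the ferritin light chain Ftl1 fell, and with the length correction 1 rose and 0 fell. Of 15 NRF2 genes 2 rose, the catalase gene Cat and G6pdx, and 1 fell; of 18 glycolysis genes 1 rose, Pfkfb3; of 13 genes of alternative activation 1 rose, Stat6; of 11 MHC class II genes 1 rose and 1 fell; of 24 lysosomal genes 2 rose and 1 fell; and of 20 immediate early and heat shock genes 0 rose and 2 fell, Ier2 and Jund. With the replicate number as a block, more of some lists rose: 8 LXR and efflux genes, 7 iron genes, 6 sterol synthesis genes, 5 NRF2 genes, 4 lysosomal genes, 3 macrophage identity genes, 2 deacetylases, 2 scavenger receptor genes and 1 immediate early or heat shock gene. Over all 14757 genes tested the calls higher in KO grew as well, from 1782 to 2225 with the block on all 24 libraries. The gain in these lists is therefore not particular to them.

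Some markers of other cells that marrow cultures can hold also differed between the genotypes: the summed osteoclast, monocyte and T or NK markers were higher in every KO library than in every dCIS library, and the summed dendritic cell markers lower. Summed neutrophil markers had 20.5 to 42.4 CPM in KO libraries and 16.7 to 22.8 CPM in dCIS libraries, and 1 of 3 tested rose, the collagenase gene Mmp8, which is also in the protease list. Dendritic cell markers summed to 5.42 to 6.63 CPM in KO libraries and 9.14 to 13.4 CPM in dCIS libraries, and 1 of 3 fell, Batf3. Osteoclast markers summed to 151 to 160 CPM in KO libraries and 98.9 to 138 CPM in dCIS libraries, with 2 of 5 higher, Tnfrsf11a and Nfatc1 (0 with the length correction or without dCIS replicate 3). Monocyte markers summed to 10.7 to 17.2 CPM in KO libraries and 6.20 to 10.3 CPM in dCIS libraries, with 2 of 7 higher, Vcan and Fn1. B cell markers had 19.1 to 101 CPM in KO libraries and 22.9 to 58.8 CPM in dCIS libraries, with 0 of 2 called. T or NK markers had 7.37 to 22.8 CPM in KO libraries and 3.22 to 7.17 CPM in dCIS libraries, where 1 of 2 tested, Cd4, rose. Mast cell markers had at most 0.194 CPM and erythroid markers at most 0.523 CPM in KO libraries, and at most 0.141 and 0.222 CPM in dCIS libraries. Of the fibroblast, endothelial, eosinophil and progenitor markers 1 of 2, 1 of 5, 0 of 1 and 0 of 4 rose and none fell. Beside these counts, 12.1% of all genes tested rose and 9.25% fell. With so few genes tested per marker list, the counts of calls cannot be set apart from those shares. The sex-linked genes Kdm5d and Uty rose and Eif2s3y fell, with log2 fold changes of 0.53, 0.52 and -0.31; each call was lost when any 1 of 5 or more libraries was left out. The part of these cells in the results was not tested.

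The calls were also set beside the response to LPS. In WT, whose libraries are not part of the comparison, LPS against untreated called 4484 genes higher (30.4% of genes tested) and 4571 lower (31%). Of the 1782 genes called higher in untreated KO over dCIS, 873 were raised by LPS in WT, 49% of them and 19.5% of the genes raised by LPS, and 423 (23.7%) were lowered. Of the 1365 called lower, 324 (23.7%) were raised and 424 (31.1%) lowered. With the length correction 372 of 710 genes called higher (52.4%) were raised by LPS in WT, and 329 of 870 called lower (37.8%) were lowered by it.

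The difference between KO and dCIS itself changed with LPS in 4 genes (0.0271%) by a test of the difference, Rnf144a, Nol10, Med21 and Lsm11. Rnf144a, a ubiquitin ligase, had 0.920, 1.0048, 0.742 and 1.22 CPM in untreated KO libraries, against 0.846, 1.22, 0.892 and 0.621 CPM in untreated dCIS libraries. After LPS it had 0.742, 0.719, 0.418 and 0.159 CPM in KO libraries, against 5.60, 7.15, 3.74 and 5.40 CPM in dCIS libraries. The genotypes overlapped untreated and were fully apart after LPS, and the difference of the log2 fold changes was -3.56 (SE 0.474, adjusted p = 0.000781). Nol10, a nucleolar protein, had 84.9, 96.3, 82.8 and 81.8 CPM in KO libraries after LPS, against 37.6, 37.9, 27.5 and 30.2 CPM in dCIS libraries (difference 1.26, SE 0.173, adjusted p = 0.000781). Both genes lie on chromosome 12, 29 and 51 tested genes before Hdac9. Med21, a Mediator subunit, and Lsm11, of the histone RNA processing complex, differed by 0.97 and 1.00 (adjusted p = 0.0471 for both). The calls of Rnf144a and Nol10 held under every setting tried for this test, whereas those of Med21 and Lsm11 were each lost with the length correction and without most single libraries.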

How the data were processed

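RNA of 24 libraries (6 groups of 4) was bound to oligo-dT beads (200 ng of total RNA each) and sequenced in paired-end reads of 60 nucleotides, per the labels' protocols. The authors deposited whole-number counts per mouse gene; the submitters' processing notes name STAR, edgeR and mm39. Not given in the sources used here are the counting program, strand setting, annotation release and versions, so overlapping genes and close paralogs cannot be separated further.

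All 24 libraries entered 1 quasi-likelihood fit of group means in edgeR 4.0.16 (R 4.3.3), with TMM scaling and that package's filter on low counts (minimum count 10, total 15), which kept 14757 of 56941 IDs, 51948 of them (91.2%) with a symbol. Log2 fold changes are KO over dCIS. Adjusted p-values are Benjamini-Hochberg over all tested genes, 2-sided, and genes were called under 0.05. Levels in CPM use TMM-scaled library sizes; depth limits counts to sampling error, which the 4 libraries' SD includes. The permutation test used log2(CPM + 0.1).

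The text names the 15 largest rises and 15 largest falls (called, no overlap between libraries, at least 5 CPM in the higher group), up to 4 called members per list, called neighbours of Hdac9 and fixed genes such as Tnf; other named genes (stable and WT-side genes, called members beyond 4 per list) were chosen after their values were seen. Some genes these rules select are not reported here. Members and lists were chosen with earlier results of these data known. The numbers 1 to 4 are taken to pair untreated KO and dCIS libraries, because deviations of equal-numbered libraries correlated in all 4 pairs (r = 0.189, 0.359, 0.243 and 0.114). KO replicate 4 correlated better with dCIS replicate 3 (r = 0.16), so the pairing is uncertain. The main fit did not use it. Transcript lengths (GENCODE M21, longest transcript, 14527 genes, 98.4%) and gene order came from GRCm38, promoters from RefSeq by symbol (9535 genes). Alternatives were DESeq2 1.42.0, other scalings, filters and library sets, a replicate block, each library left out, and length or GC correction. On simulated counts the main test was checked without a length trend, and the length-corrected test with one. No limit was set there for the main test under a length trend, so the check does not cover the main calls in that setting.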

Additional observations from a re-analysis of the deposited data

Results flagged for a closer look

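In 17 of 258 groups of 4 libraries tested (6.59%), 1 library lay far from the other 3 by Dixon's test, where chance gives about 1 in 20. Of these libraries 10 were KO replicate 2. That library had 3.095 CPM of Nos2 (other KO libraries 0.194 to 0.235), 14.19 CPM of Adam19 (4.11 to 4.70), 65.8 CPM of Arl4c (31.4 to 36.6), 474.7 CPM of Abca1 (219 to 254), 153.7 CPM of Abcg1 (61.9 to 73.5), 115.1 CPM of P2rx7 (71.6 to 73.6), 61.74 CPM of Nfatc1 (43.3 to 45.4) and 53.82 CPM of Sirt7 (39.7 to 41.2), and was lower for Pcdhac2 at 3.577 CPM (7.37 to 7.70) and Tnfrsf11a at 81.35 CPM (98.2 to 101).

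KO replicate 1 stood above the other KO libraries for 4 cell cycle genes, with 114.1 CPM of Mcm6 (71.2 to 77.0), 32.34 CPM of Mcm7 (21.1 to 22.4), 27.5 CPM of Tpx2 (15.5 to 17.5) and 8.425 CPM of Spc25 (4.58 to 4.88). KO replicate 4 had 2.347 CPM of Ptgs2 (3.78 to 3.83) and 14.6 CPM of Naip6 (18.8 to 19.7). In dCIS, replicate 1 had 120.5 CPM of Parp14 (148 to 150).

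The difference between KO and dCIS changed with LPS, by a test of the difference in edgeR, in 4 genes: by -3.557 on the log2 scale for Rnf144a (adjusted p = 0.000781), 1.263 for Nol10 (adjusted p = 0.000781), 0.9981 for Lsm11 and 0.9664 for Med21 (adjusted p = 0.0471 for both).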

How the results depend on the processing

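The untreated count of 3147 genes was 3911 with the replicate block, 3744 with DESeq2, 1317 in a fit of the 8 libraries alone, 1580 with the length correction, 2240 with that correction and the block, and 441 with that correction and without dCIS replicate 3; leaving out single libraries gave 1198 to 4488. Of 132 named genes, calls lost with the sign kept were 41 with the length correction, 50 without dCIS replicate 3 and 68 with both. Genes whose sign turned are not in these counts and numbered 4 with the length correction, 1 without dCIS replicate 3 and 5 with both. With DESeq2 or the block on all 24 libraries 0 calls were lost and no other call changed. The 322 genes after LPS became 850 without the filter, 751 with the block, 679 with DESeq2, 570 with length correction and block, 62 without dCIS replicates 3 and 4 after LPS, and 122 to 1446 without single libraries; equal-numbered libraries after LPS correlated at 0.0287 to 0.153. The 4 genes whose difference changed with LPS became 164 without the filter, 29 with DESeq2, 14 with length correction and block, 2 with the length correction, with or without dCIS replicate 3, and 2 to 167 without single libraries. The share of called genes with WT near dCIS was 37.3% and the called genes on chromosome 12 numbered 60 with the length correction. Scaling by DESeq2's size factors moved the median of all genes to 0.036.

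Signs turned for some genes, among them Cyld and Tfe3, which were called higher in KO from the counts as deposited. Leaving out single libraries kept Cyld between 0.2661 and 0.3603 and Tfe3 between 0.1614 and 0.2683. With the length correction, with it and the block, and with it without dCIS replicate 3, log2 fold changes were -0.09519, -0.09543 and -0.05463 for Cyld, -0.08839, -0.08637 and -0.08748 for Tfe3, -0.04477, -0.1103 and -0.05618 for Abcg1, and -0.08815, -0.0844 and -0.03702 for Rnf144a; Nlrp3 had -0.01849 in the last of these. Med21 had -0.09343 with the GC correction and -0.09175 with it and the block. Without single libraries the ranges were -0.5018 to 1.341 for Il6, -0.2411 to 0.4947 for Il1b, -0.1806 to 0.4111 for Abcg1, -0.01697 to 0.3125 for Rnf144a, -0.04451 to 0.1135 for Med21 and -0.09441 to 0.1944 for Tnf. The causes were not tested.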

Other observations

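Families of genes were also looked up after the values were seen. Among all genes tested 12.1% rose and 9.25% fell, and 4.81% and 5.9% with the length correction; in the shortest class of transcripts 17.5% fell, and 3.71% with the correction. Of 87 genes of cytosolic ribosomal proteins 0 rose and 54 fell in KO over dCIS, with a median log2 fold change of -0.41 and a median transcript of 1047 nucleotides, and 0 rose and 20 fell with the length correction. Of 84 nuclear genes of oxidative phosphorylation 0 rose and 51 fell (median -0.46), and 1 rose and 19 fell with the correction. Of 38 proteasome subunits 14 fell, and 4 with the correction. Of 293 zinc finger genes named Zfp 46 rose and 6 fell, and 14 and 4 with the correction. Kinesins, motor proteins with long transcripts, divided: of 34 tested 9 rose and 6 fell, and 2 rose and 10 fell with the correction. Of the 5 tested Ugt1a genes, whose median transcript of 2303 nucleotides is shorter than that of all genes, 5 rose, and 5 with the correction.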
